A study of Mus musculus with 24 samples.

Results

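The genes described here are 32 members of the sterol and fatty acid synthesis pathways, taken by symbol from pathway membership, with earlier results of these data known. They span the mevalonate steps, the prenyl diphosphate synthases, the steps from squalene to lanosterol and on to cholesterol, the control and transport genes Srebf2, Insig1 and Stard4, and a fatty acid arm from Srebf1 and Acly to the desaturases. A probe set assigned to 1 gene was found for 30 of the 32, with none for Insig1 and Acat2, whose expression was not analysed here. Of these 30, 29 entered the test of 8616 genes: 20 of 20 in the sterol arm and 9 of 10 in the fatty acid arm. Acaca, which encodes acetyl-CoA carboxylase, lay at or under the 40th percentile of its array on all 24 arrays and was not tested.

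C2C12, an established line of mouse myoblasts (the precursor cells of skeletal muscle), was transfected with siRNA against Ift88 (the groups labelled IFT88KD) or with a negative control siRNA, so every group carries a transfection. The product of Ift88 is a part of intraflagellar transport, without which cells cannot assemble a primary cilium. Each siRNA was followed through 4 culture states with 3 arrays in each of the 8 groups, on Affymetrix mouse expression arrays. The proliferating state was adherent culture in DMEM with 20% fetal bovine serum, and the quiescent state was suspension culture with the same serum. Replated cells had been back on a surface for 2 h after suspension, and differentiation ran for 48 h in DMEM with 2% horse serum. Quiescence therefore goes with the loss of attachment, and differentiation goes with a lower amount and another kind of serum. The labels do not say whether the replicates of a group came from separate cultures, so the p-values below measure the spread between these arrays, which may be technical. As the RNA came from whole cultures, fewer cells expressing a gene and less of its RNA per cell cannot be told apart.

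Cholesterol is built from acetyl-CoA through mevalonate, isoprenoid diphosphates, squalene and lanosterol, and the same acetyl-CoA feeds fatty acid synthesis. Most of these enzymes are targets of the sterol regulatory element binding proteins, membrane-bound transcription factors encoded by Srebf1 and Srebf2 that are released when sterols in the endoplasmic reticulum run low. Dividing cells need both products for new membrane, and prenyl diphosphates also supply the lipid anchors of small GTPases.

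Promoter windows from RefSeq (build GRCm38.p6, 250 bases before to 50 after each annotated start) were matched by symbol for 25 of the 32 members. In these, 4 short motifs known from SREBP target promoters were searched on both strands. CCAAT, the NF-Y box, was in 17 of 21 sterol arm windows (81.0%) and 5 of 9 fatty acid arm windows (55.6%), against 37.4% of all 32851 windows. GGGCGG, the Sp1 box, was in 17 of 21 (81.0%) and 5 of 9 (55.6%), against 35.7% of all windows. CACGTG, an E-box, was in 4 of 21 sterol windows (19.0%) and 0 of the fatty acid windows, against 7.15%. TCACNCCAC, a strict form of the sterol regulatory element core, was in 1 of 21 sterol windows, that of Hmgcs1, and in 0 of 9 fatty acid windows, against 1.24% of all. The 21 windows cover 18 genes, among them Insig1 and Acat2, and the 9 windows 7 genes, among them Acaca. Expression of these named genes was not tested. All counts are matches of letters only. Promoters were chosen for the 6 sterol members with the largest changes on quiescence in control cells. The 250 bases before the start are shown for Idi1, Msmo1, Cyp51 and Sc5d. Fdps and Stard4, also among the 6, had no window. Sc5d is also the sterol arm member that passed the test under Ift88 siRNA. Each stretch is read 5′ to 3′ on the gene's strand, with matches to the motifs on either strand in capitals.
Idi1 (chr13:8885356-8885605, plus strand): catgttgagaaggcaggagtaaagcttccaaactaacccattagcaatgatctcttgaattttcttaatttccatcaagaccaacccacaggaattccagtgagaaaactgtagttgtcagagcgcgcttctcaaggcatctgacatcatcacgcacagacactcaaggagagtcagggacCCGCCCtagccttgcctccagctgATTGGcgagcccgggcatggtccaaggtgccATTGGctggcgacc
Msmo1 (chr8:64733579-64733828, minus strand): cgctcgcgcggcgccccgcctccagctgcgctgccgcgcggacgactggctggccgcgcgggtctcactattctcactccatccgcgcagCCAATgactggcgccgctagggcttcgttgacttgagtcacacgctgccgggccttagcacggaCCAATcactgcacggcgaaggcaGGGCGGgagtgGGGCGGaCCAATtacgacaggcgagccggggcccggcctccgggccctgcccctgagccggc
Cyp51 (chr5:4104698-4104947, minus strand): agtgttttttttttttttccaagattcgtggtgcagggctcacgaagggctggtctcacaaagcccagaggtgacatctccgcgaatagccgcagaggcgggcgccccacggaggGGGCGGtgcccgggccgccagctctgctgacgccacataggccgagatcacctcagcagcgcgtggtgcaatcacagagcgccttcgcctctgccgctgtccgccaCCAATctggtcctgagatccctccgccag
Sc5d (chr9:42264301-42264550, minus strand): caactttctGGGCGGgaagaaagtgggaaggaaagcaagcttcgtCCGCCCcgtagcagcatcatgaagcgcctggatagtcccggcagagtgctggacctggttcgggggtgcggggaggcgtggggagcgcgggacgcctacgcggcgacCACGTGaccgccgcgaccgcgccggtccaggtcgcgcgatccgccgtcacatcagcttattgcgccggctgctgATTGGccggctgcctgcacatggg
Each of the 4 stretches holds at least 1 CCAAT and 1 GGGCGG match. In Msmo1 the 3 CCAAT matches lie at positions -160, -96 and -55 from the start, and in Idi1 the matches on the other strand lie at -45 and -14. Sc5d alone of the 4 has a CACGTG match, at -98.

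Values are the deposited log2 expression values, and differences between groups are differences of group means on that scale, tested with limma and adjusted by the Benjamini-Hochberg method over all 8616 genes (threshold 0.05). Array medians ranged from 3.58 to 3.62 for the proliferating groups and from 3.68 to 3.78 for the differentiating ones, with quiescent arrays at 3.79 to 3.85 and replated arrays lowest at 2.92 to 2.98, so comparisons between states carry a difference of scale, and values after quantile normalisation over all arrays stand beside them where they differ. Ift88 itself was lower on all 3 IFT88KD arrays than on any control array in proliferating (-0.52, adjusted p = 0.294, and 0.0432 with replicate numbers as a block), quiescent (-0.69, adjusted p = 0.0112) and replated cells (-0.59, adjusted p = 0.0525, and 0.00802 with the block). In differentiating cells the control arrays read 3.77, 3.71 and 3.93 and the arrays labelled IFT88KD read 3.88, 3.51 and 4.0 (difference -0.0088, 95% interval -0.34 to 0.32), so that label was not borne out by the targeted gene at this stage and directions there are given for the labels only. Of 6 myoblast markers, 5 lay above the 40th percentile in every group and Pax7 lay at or under it on all arrays. The 3 endothelial markers lay at or under it on all arrays.

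In control cells, quiescence in suspension went with a fall of almost the whole sterol arm. Of its 20 tested genes, 18 fell from proliferating to quiescent cells and 0 rose, where 29.4% of all tested genes fell and 41.9% rose. The median change of the arm was -2.08, against 0.14 for all genes tested. After quantile normalisation all 20 fell, with a median of -2.16, and the 18 were among them, where 33.1% of all genes fell.

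All 5 tested genes of the mevalonate steps fell. Idi1, the isomerase that makes the activated isoprene units interchangeable, read 7.97, 8.00 and 7.93 in proliferating and 3.13, 3.14 and 2.96 in quiescent control cells. The groups lie far apart: Idi1 fell by 4.89 (SE 0.11, adjusted p = 3.97e-19), which is 29.6-fold. Its mean rank within an array went from the 91.1st to the 44.2nd percentile. Hmgcs1, the cytosolic HMG-CoA synthase that starts the branch to mevalonate, fell by 2.51, and the kinases Mvk and Pmvk and the decarboxylase Mvd fell by 1.60, 1.59 and 1.57. Mvk lay at or under the 40th percentile on every quiescent array, so the size of its fall is limited by the floor of the signal.

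Fdps, which makes farnesyl diphosphate, the branch point to sterols and to protein prenylation, read 7.72, 7.62 and 7.62 in proliferating and 2.93, 3.11 and 2.70 in quiescent control cells. The fall of 4.74 (SE 0.17, adjusted p = 5.4e-16) is 26.8-fold and the arrays do not overlap. On the mean of the Fdps probe sets the fall was 2.35, also called. For Ggps1, which makes the longer geranylgeranyl diphosphate, the difference of -0.42 did not pass the test (adjusted p = 0.145; 0.0476 after quantile normalisation). At the squalene stage, Fdft1 (squalene synthase) fell by 2.38, Sqle (squalene epoxidase) by 2.12 and Lss (lanosterol synthase) by 1.88.

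Between lanosterol and cholesterol, 7 of 8 genes fell. Msmo1, which oxidises the methyl groups that are removed from the sterol ring, read 7.52, 7.41 and 7.19 in proliferating and 3.41, 3.27 and 3.32 in quiescent control cells, a fall of 4.04 (SE 0.15, adjusted p = 1.33e-15). Cyp51, the lanosterol demethylase, read 6.93, 6.96 and 6.96 and then 3.15, 3.49 and 3.32, a fall of 3.63 (SE 0.12). The arrays of both genes are clear of each other. A further Cyp51 probe set gave a fall of only 0.92, while another gave 4.05. Sc5d, the desaturase acting on lathosterol, fell by 2.71, the isomerase Ebp by 2.36 and Nsdhl, which works beside Msmo1 in demethylation, by 2.04. Dhcr7, the reductase of the last step, fell by 0.87 and Hsd17b7 by 0.36. The sterol reductase Tm7sf2 differed by -0.25 (adjusted p = 0.186; 0.0168 after quantile normalisation).

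Of the control and transport genes, Srebf2 fell by 1.81 (1.01 on a further probe set). Stard4, which carries cholesterol between membranes, read 5.72, 6.0 and 5.94 in proliferating and 2.68, 3.0 and 3.02 in quiescent control cells. Its fall of 2.99 (SE 0.13, adjusted p = 1.34e-14) is 7.93-fold, with no overlap.

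The fatty acid arm divided. Of 9 tested genes, 5 fell, 1 rose and 3 did not pass the test (median -0.77), where 29.4% of all tested genes fell and 41.9% rose. Fads2, a desaturase of polyunsaturated fatty acids, fell by 2.59, Fasn (fatty acid synthase) by 1.75, Acly, which makes cytosolic acetyl-CoA from citrate, by 1.53, the elongase Elovl6 by 1.06 and the desaturase Fads1 by 0.77. Scd1, a stearoyl-CoA desaturase, read 7.74, 8.26 and 8.44 in proliferating and 9.77, 9.87 and 9.80 in quiescent control cells, a rise of 1.67 (SE 0.13, adjusted p = 3.41e-10) with no overlap. A second Scd1 probe set showed no such rise (-0.11, SE 0.19, adjusted p = 0.612), so the rise rests on 1 probe set (mean of both, 0.78). Srebf1 (-0.09, 95% interval -0.40 to 0.21), Scd2 (0.013, -0.30 to 0.32) and Acss2, which makes acetyl-CoA from acetate (0.07, -0.32 to 0.46), did not pass. Scd1 and Scd2 are close paralogs, and how far a probe set of one reads the other was not tested.

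**Figure D1:**
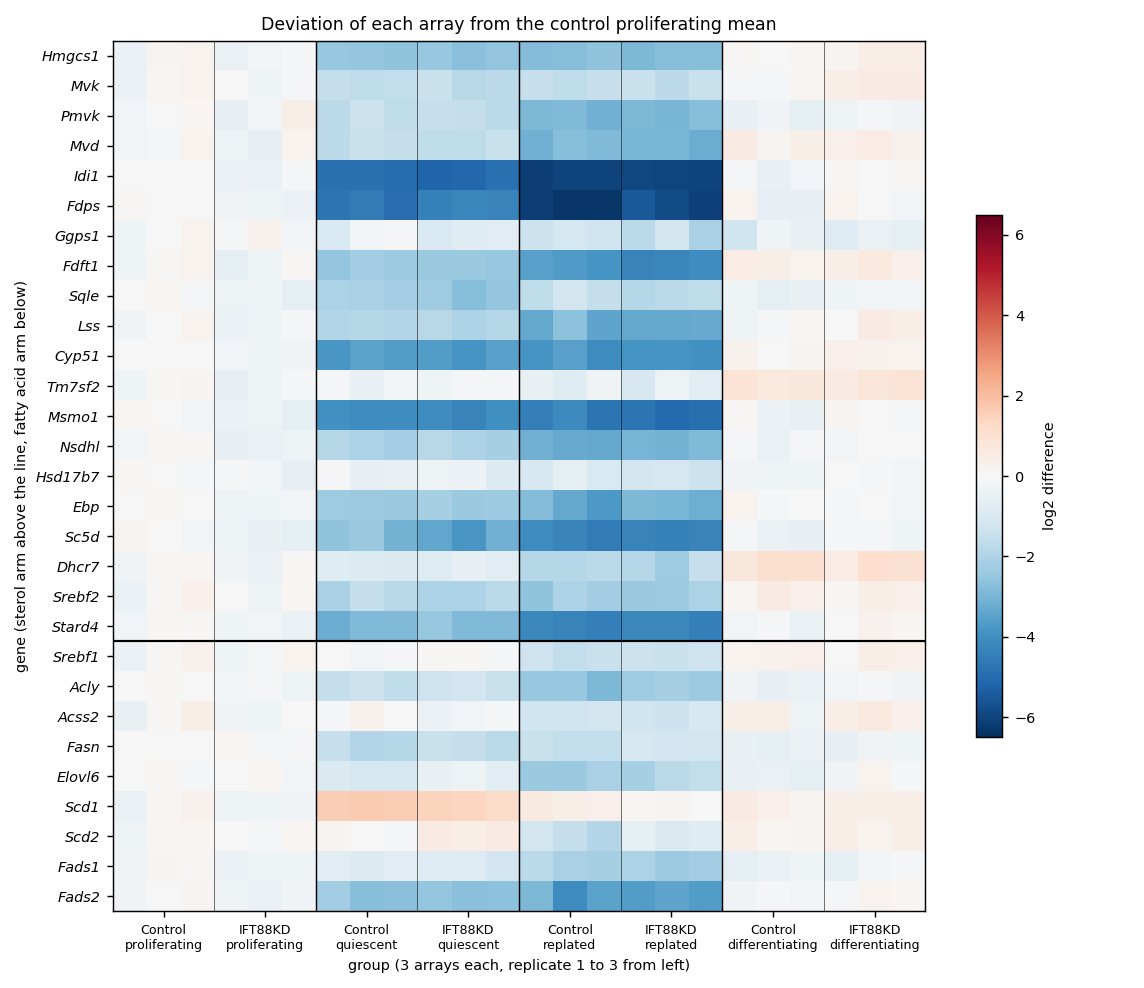
Heat map of the 29 tested members (rows, by role) on the 24 arrays (columns, by group), as the log2 difference from the mean of the 3 control proliferating arrays. The sterol arm is low on quiescent and replated arrays with either siRNA, and Scd1 (1.67 higher in quiescent controls) stands apart from its neighbours.

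Signals of other cell programmes also moved with quiescence. The summed fibroblast markers (log2 of the sum of 4 genes) went from 5.23 to 5.61 in proliferating to 10.27 to 10.63 in quiescent control cells, with Dcn and Pdgfra high and Thy1 at or under the 40th percentile throughout. The summed macrophage markers (6 genes) went from 4.96 to 5.29 up to 8.16, mostly Cd14, while Ptprc, Adgre1 and Lyz2 stayed at or under the percentile. The summed adipocyte markers (5 genes with a probe set) went from 5.08 to 5.60 up to 7.35 to 7.55, with Adipoq and Lep at or under the percentile. The muscle differentiation markers (5 genes) went from 5.86 to 9.24 up to 9.29 to 9.87. Their part in the falls above was not tested.

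In replated cells, 2 h after return to a surface, the sterol arm was still low. Against quiescent controls, 15 of 20 sterol genes were lower, 1 was higher and 4 did not pass (median -0.94), where 66.2% of all tested genes were lower, 9.73% were higher and the median was -0.60. After quantile normalisation these became 9 lower and 5 higher (median -0.19), where 36.3% of all genes were lower and 27.5% higher. Of the 16 sterol calls, 10 held in the same direction, and Msmo1, Hsd17b7 and Srebf2 changed sign, from differences of -0.41, -0.53 and -0.48 to 0.43, 0.22 and 0.21. Sqle was higher on both scales: 6.48, 6.41 and 6.32 in quiescent and 6.88, 7.31 and 6.98 in replated control cells, a rise of 0.65 (SE 0.13, adjusted p = 9.59e-05), or 1.05 after quantile normalisation. Its replated arrays all exceed its quiescent ones. Mvk (0.83), Cyp51 (0.67) and Tm7sf2 (0.60) were higher only after quantile normalisation, with deposited differences of 0.07, -0.20 and -0.25.

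Other members kept falling on both scales. Fdps went from 2.93, 3.11 and 2.70 to 1.54, 1.32 and 1.36, a fall of 1.51 (1.08 after quantile normalisation), and it lay at or under the 40th percentile on all 3 replated control arrays. Sc5d fell by 1.60 (1.03), Pmvk by 1.37 (0.63) and Stard4 by 1.34 (0.86). Second probe sets of Stard4 (-0.28, SE 0.24, adjusted p = 0.313), Idi1 (-0.24, adjusted p = 0.219; -1.17 on the one used) and Srebf2 (-0.25, adjusted p = 0.161) did not pass. Scd2 went from 10.47, 10.26 and 10.18 to 9.12, 8.72 and 8.40, a fall of 1.56 (SE 0.15, adjusted p = 7.33e-09), or 1.22 after quantile normalisation, with no overlap. In the fatty acid arm 8 of 9 genes were lower (median -1.25; after quantile normalisation 7 lower, median -0.67, and Fasn higher by 0.60). Of all tested genes 66.2% were lower, and after quantile normalisation 36.3% were lower and 27.5% higher. Srebf1, whose quiescent level was close to the proliferating one, read 6.73, 6.56 and 6.61 in quiescent and 5.40, 5.14 and 5.25 in replated control cells, a fall of 1.37 (0.85). Idi1, Fdps and Stard4 lay at or under the percentile on all 3 replated control arrays, Sc5d on 2 and Mvd on 1, so their falls are limited by the floor. With arrays centred on their medians the falls were smaller: 0.65 for Fdps, 0.74 for Sc5d, 0.52 for Pmvk, 0.51 for Srebf1 and 0.70 for Scd2, all still called, with arm medians of -0.08 and -0.39 and Sqle at 1.51. On the mean of probe sets Fdps fell by 0.76 and Sc5d by 0.67.

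In differentiating control cells the members moved in both directions. In the sterol arm 4 genes were higher and 3 lower than in proliferating cells (median -0.15), where 24.6% and 30.3% of all genes were higher and lower (median -0.06). After quantile normalisation 3 sterol genes were higher and 3 lower (median -0.08), and without control proliferating replicate 3 the deposited median was -0.077. Dhcr7 read 5.12, 5.43 and 5.50 in proliferating and 6.09, 6.38 and 6.41 in differentiating cells, a rise of 0.94 (SE 0.18, adjusted p = 0.000129). Tm7sf2 went from 2.91, 3.23 and 3.35 to 4.05, 3.86 and 3.87, a rise of 0.77 (adjusted p = 0.000541). The arrays of neither gene overlap. Fdft1 rose by 0.37 and Mvd by 0.37 (adjusted p = 0.0367 and 0.0495), and neither call held throughout. That of Fdft1 was lost in 7 of 17 alternatives, among them the mean of probe sets (0.09, adjusted p = 0.396), arrays centred on their medians (0.28, adjusted p = 0.105) and the fit without control proliferating replicate 1 (0.22, adjusted p = 0.229). A further Fdft1 probe set gave 0.22 (adjusted p = 0.243). That of Mvd was lost after quantile normalisation (adjusted p = 0.0538). Sqle fell by 0.46 and Pmvk by 0.45, the latter lost without control proliferating replicate 2 (adjusted p = 0.0621) or 3 (0.0788), or control differentiating replicate 1 (0.0654) or 3 (0.1). Ggps1 fell by 0.69. Its further probe sets gave -0.62 (adjusted p = 0.00506), -0.27 (adjusted p = 0.317) and 0.07 (adjusted p = 0.721).

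In the fatty acid arm, Elovl6 fell by 0.49, Fasn by 0.48, Fads1 by 0.46 and Acly by 0.39, each with no overlap between the groups. A second Elovl6 probe set gave -0.17 (adjusted p = 0.496), and the mean of both -0.33 (adjusted p = 0.0747). Further Acly probe sets gave -0.63 (adjusted p = 0.0318) and -0.20 (adjusted p = 0.055). Fads1 did not pass without control proliferating replicate 2 (adjusted p = 0.066) or control differentiating replicate 1 (0.0704). Fasn read 8.27, 8.24 and 8.19 in proliferating and 7.77, 7.64 and 7.85 in differentiating control cells. The arm's median was -0.16, from -0.27 without control proliferating replicate 1 to -0.060 without replicate 3. Scd1 rose by 0.34 on the probe set used and differed by -0.21 (adjusted p = 0.376) on its other one. After quantile normalisation Srebf1 (0.39) and Scd2 (0.36) passed as well. Idi1 stood at the 90.1st percentile within an array, close to its place in proliferating cells. The summed muscle differentiation markers went from 5.86 to 9.24 in proliferating up to 12.51 to 12.68 in differentiating control cells, and the fibroblast markers from 5.23 to 5.61 up to 7.19 to 8.70, mostly Dcn. Their part in these changes was not tested. The 3 state changes share control groups with one another.

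**Figure D2:**
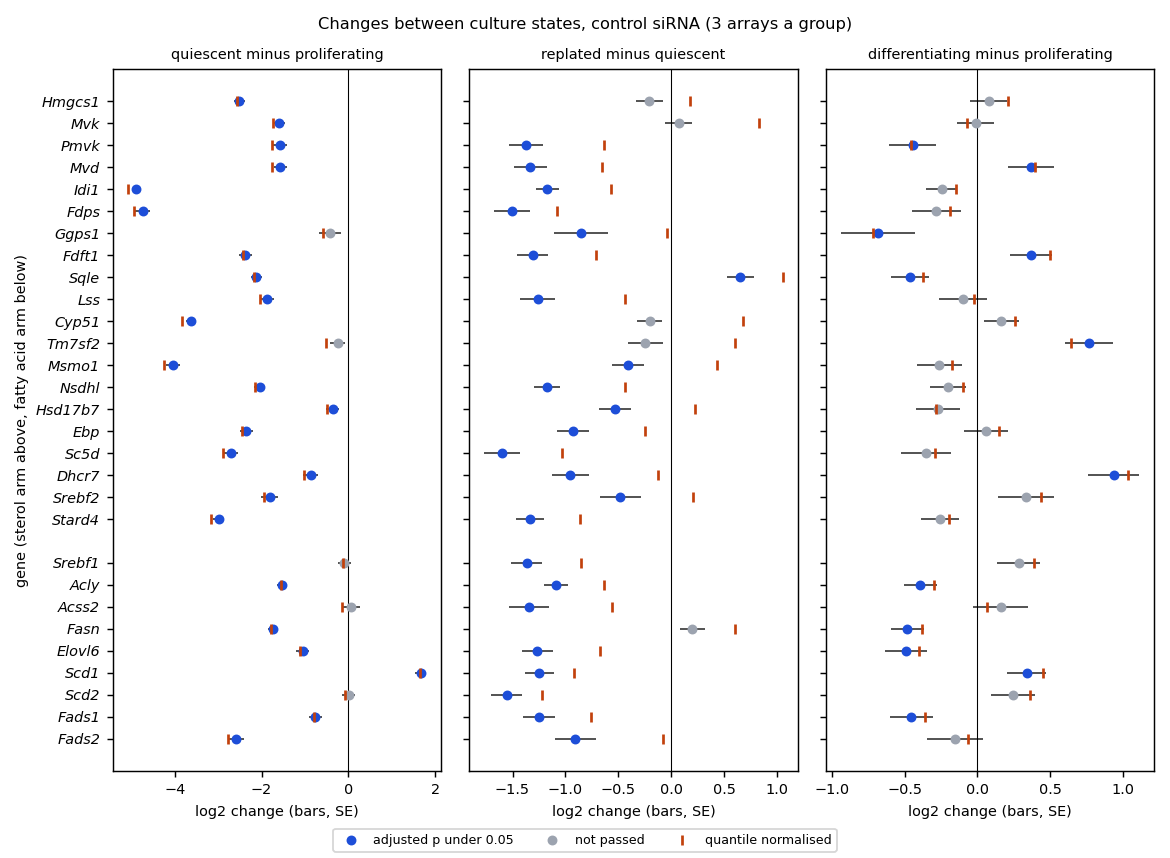
Control state changes of the 29 members (3 panels, log2 difference with its SE; blue passed the test, grey did not; the orange tick is the value after quantile normalisation). Idi1 (-4.89) and Fdps (-4.74) lie farthest left on quiescence, Sqle (0.65) lies right of 0 on replating, and Dhcr7 (0.94) leads the rises on differentiation.

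Ift88 siRNA in proliferating cells came with small differences in one direction, of which 0 of 29 passed the test (0.162% of all genes passed as lower and 0.186% as higher). At an unadjusted p under 0.05, 6 sterol and 2 fatty acid genes were lower and 0 higher, where 3.12% of all genes were lower. All 20 sterol and all 9 fatty acid differences lay below 0, where 48.6% of all genes did. IFT88KD arrays lay wholly below the control arrays for 10 sterol and 3 of the listed 9 fatty acid genes, where 4.33% of all genes did so.

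By role, the median difference was -0.22 for the mevalonate steps, -0.14 for the prenyl diphosphate synthases, -0.28 from squalene to lanosterol, -0.31 from lanosterol to cholesterol and -0.17 for Srebf2 and Stard4. Nsdhl read 7.03, 7.30 and 7.27 on control and 6.66, 6.78 and 6.89 on IFT88KD arrays, a difference of -0.43 (SE 0.12, adjusted p = 0.246, and 0.0432 with replicate numbers as a block). Sqle read 8.50, 8.65 and 8.44 against 8.21, 8.24 and 7.88 (-0.42, SE 0.13, adjusted p = 0.294). In both, every IFT88KD array lies below every control array. With the block, Nsdhl was the 1 member called, where 0.975% of all genes were called lower. Msmo1 read 7.52, 7.41 and 7.19 against 6.97, 7.04 and 6.77 (-0.45, adjusted p = 0.444). Sc5d read 6.27, 6.06 and 5.93 against 5.74, 5.62 and 5.45 (-0.49, SE 0.17, adjusted p = 0.457). These do not overlap either. Tm7sf2 (-0.33, adjusted p = 0.837) overlapped, and Fads2 (-0.33, adjusted p = 0.904) did not. Srebf2 differed by -0.05 (95% interval -0.45 to 0.35), Ggps1 by -0.0039 and Elovl6 by -0.0043, at 0 within their error.

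Taking each replicate number as a pair, the sterol median was -0.22, -0.38 and -0.33, with 17, 19 and 19 of 20 genes lower. The fatty acid median was 0.07, -0.25 and -0.30, so pair 1 did not share that arm's direction. Over all pairs it was -0.17, and -0.048 without control replicate 3. The median deviation of the sterol arm from the control mean was -0.17, 0.05 and 0.09 on the control arrays and -0.34, -0.30 and -0.16 on the IFT88KD arrays, so control replicate 1 and IFT88KD replicate 3 meet. The control arrays also differed in muscle differentiation markers: the log2 sum of 5 of them was 5.86, 7.94 and 9.24 on control and 7.34, 8.12 and 9.89 on IFT88KD arrays, lowest in replicate 1 of both. The part of these markers in the differences was not tested.

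**Figure D3:**
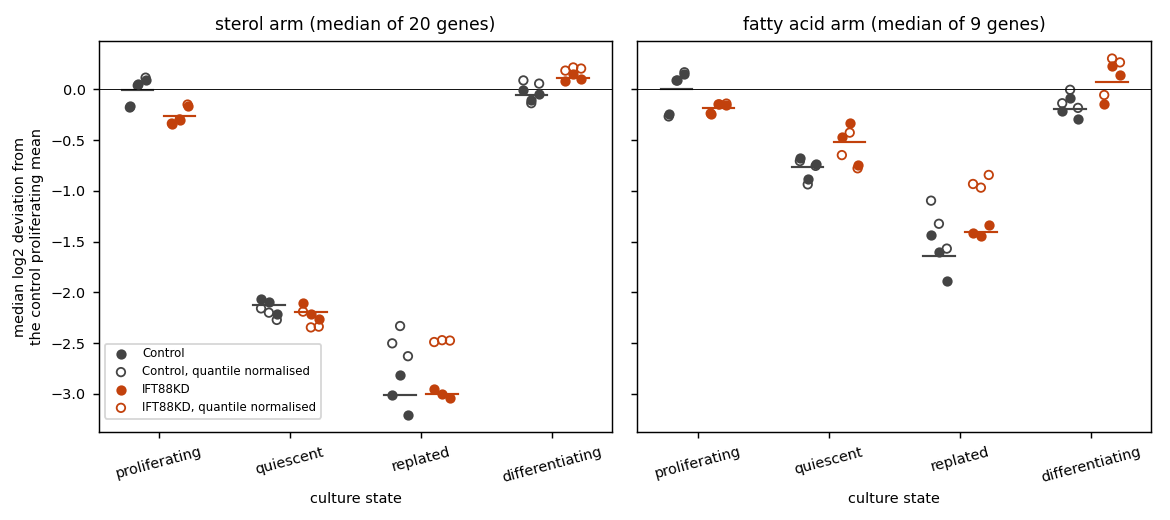
Median log2 deviation of each arm from the control proliferating mean on each array (filled, deposited values; open, quantile normalised; line, group mean of 3 arrays). The sterol arm sits at -2.12 in quiescent and -3.01 in replated controls, and at -2.19 and -3.00 with Ift88 siRNA.

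In quiescent cells Ift88 siRNA came with 1 sterol gene called lower and 1 fatty acid gene called higher, where 2.31% of all genes were called lower and 2.94% higher. Sc5d, already low, read 3.45, 3.68 and 3.0 on control and 2.70, 2.30 and 2.95 on IFT88KD arrays. Every IFT88KD array lies below the controls, although the nearest arrays (3.0 and 2.95) are close. The fall of 0.73 (SE 0.17, adjusted p = 0.0129) is 1.66-fold, and 0.39 on the mean of probe sets (adjusted p = 0.0183). It did not pass with only the compared groups fitted (adjusted p = 0.101), nor without IFT88KD replicate 2 (-0.55, adjusted p = 0.0923), control replicate 1 (0.0503) or control replicate 2 (0.103), and IFT88KD replicate 2 lay under the 40th percentile. Elovl6, which lengthens saturated fatty acyl chains, read 6.16, 6.04 and 6.02 on control and 6.66, 6.79 and 6.38 on IFT88KD arrays. All 3 IFT88KD arrays exceed the controls, and the rise of 0.54 (SE 0.14, adjusted p = 0.0274) is 1.45-fold. A second Elovl6 probe set gave 0.51 (SE 0.19, adjusted p = 0.182). The call was lost without IFT88KD replicate 1 (adjusted p = 0.0959) or 2 (0.139), or without control replicate 2 (0.103) or 3 (0.0959), and on the mean of probe sets (0.0501).

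With replicate numbers as a block, 3 members passed as higher and 2 as lower, where 6.84% and 6.94% of all genes did. The 3 added were Scd2, Fdps and Sqle. Scd2 read 10.47, 10.26 and 10.18 against 10.81, 10.72 and 10.83 (0.48, adjusted p = 0.0688, and 0.0112 with the block). Fdps read 2.93, 3.11 and 2.70 against 3.28, 3.41 and 3.32 (0.43, adjusted p = 0.19, and 0.0187 with the block). Both are higher on all 3 IFT88KD arrays. Over the alternatives the Fdps difference ran from 0.21 to 0.52. Sqle read 6.48, 6.41 and 6.32 against 6.22, 5.78 and 6.01 (-0.40, adjusted p = 0.0756, and 0.0185 with the block), lower on all 3. Ggps1 differed by -0.41 (adjusted p = 0.476) with overlap. The medians of the arms were -0.04 and 0.10 (0.0095 for the sterol arm without IFT88KD replicate 2, and 0.061 to 0.17 for the fatty acid arm without 1 array), with 13 of 20 sterol and 4 of 9 fatty acid differences below 0, where 53% of all genes were. The summed macrophage markers differed between these groups (8.16 on controls, 6.69 to 6.87 on IFT88KD arrays), as did the summed fibroblast markers (10.27 to 10.63, 9.87 to 9.97), muscle differentiation markers (9.29 to 9.87, 9.94 to 10.43) and myoblast markers (9.24 to 9.45, 9.67 to 9.81), and their part in the differences was not tested.

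In replated cells 1 member passed as higher and 0 as lower, where 1.52% and 0.929% of all genes did. Scd2, the stearoyl-CoA desaturase that puts a double bond into saturated chains, read 9.12, 8.72 and 8.40 on control and 9.67, 9.37 and 9.50 on IFT88KD arrays. The groups do not overlap, and the rise of 0.76 (SE 0.15, adjusted p = 0.00548) is 1.70-fold. It passed in each of the 6 fits without 1 array of these groups. It did not pass with only the compared groups fitted (adjusted p = 0.123) or on the mean of its probe sets (0.49, adjusted p = 0.405); its 2 other probe sets gave 0.28 (SE 0.41) and 0.43 (SE 0.89).

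With the block, 5 members passed as higher and 3 as lower, where 6.16% and 4.92% of all genes did. The fatty acid genes among them were higher: Scd2, Elovl6 (4.71, 4.71 and 5.0 against 4.99, 5.38 and 5.55; 0.50, adjusted p = 0.0688, and 0.00734 with the block), Fasn (6.80, 6.64 and 6.63 against 7.20, 7.01 and 7.06; 0.40, adjusted p = 0.0686, and 0.0127 with the block) and Acly (0.33, adjusted p = 0.148, and 0.0334 with the block). The arrays of Fasn and Acly are clear of each other, and the lowest IFT88KD array of Elovl6 (4.99) lies just under its highest control array (5.0). Of the sterol genes, Fdft1 was lower (4.80, 4.65 and 4.51 against 4.02, 4.11 and 4.32; -0.50, adjusted p = 0.072, and 0.00851 with the block), with no overlap. Over the alternatives its difference ran from -0.59 to -0.14, with limma adjusted p up to 0.621. Msmo1 (-0.45, adjusted p = 0.146, and 0.0325 with the block) and Hsd17b7 (-0.34, adjusted p = 0.295, and 0.0468 with the block) were lower too. Fdps was higher (0.45, adjusted p = 0.193, and 0.0181 with the block). However, it lay at or under the 40th percentile on all 3 control arrays and on 2 IFT88KD arrays. Over the alternatives its difference ran from 0.24 to 0.62. Ggps1 differed by -0.41 and overlapped. Scd1, the paralog of Scd2, was lower on every IFT88KD array than on any control array in both quiescent and replated cells. It differed by -0.32 in quiescent (adjusted p = 0.201, and 0.0392 with array weights) and by -0.32 in replated cells (adjusted p = 0.256). The arms' medians were -0.05 and 0.06, the latter 0.21 without control replicate 1 and 0.25 with array weights. Marker sums differed here too: macrophage 6.98 to 7.16 on control and 5.84 to 6.11 on IFT88KD arrays, fibroblast 9.16 to 9.49 and 8.86 to 9.03, and muscle differentiation 8.15 to 8.70 and 8.98 to 9.27. Myoblast markers did as well, at 8.96 to 9.20 and 9.24 to 9.53. Their part in the differences was not tested.

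In differentiating cells, where the arrays labelled IFT88KD did not have less Ift88 signal, 0 members passed (0.139% of all genes did); at an unadjusted p under 0.05, 4 sterol and 2 fatty acid genes were higher and 0 lower, where 2.58% of all genes were higher. The sterol median was 0.18, with 5 of 20 genes below 0, and the fatty acid median was 0.17, with 1 of 9 below 0, where 47.3% of all genes were. Mvk, mevalonate kinase, read 3.94, 3.92 and 4.13 on control and 4.43, 4.55 and 4.55 on arrays labelled IFT88KD, with no overlap (0.52, SE 0.13, adjusted p = 0.174, and 0.0527 with the block). Elovl6 read 6.67, 6.71 and 6.53 against 6.88, 7.35 and 7.0 (0.44, adjusted p = 0.537). Idi1 (0.31, adjusted p = 0.643) and Stard4 (0.39, adjusted p = 0.62) were also higher on all 3 arrays so labelled. Lss (0.42, adjusted p = 0.874) and Fdps (0.31, adjusted p = 0.999) overlapped. By pair, the sterol median was 0.03, 0.30 and 0.21, so pair 1 was near 0. Summed myoblast markers were 11.08 to 11.20 on control and 10.91 to 11.05 on arrays labelled IFT88KD. Macrophage markers were 4.74 to 4.78 and 4.81 to 4.93. Muscle differentiation (12.51 to 12.68, 12.18 to 12.52) and fibroblast markers (7.19 to 8.70, 7.49 to 8.32) overlapped. The part of these markers in the differences was not tested.

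**Figure D4:**
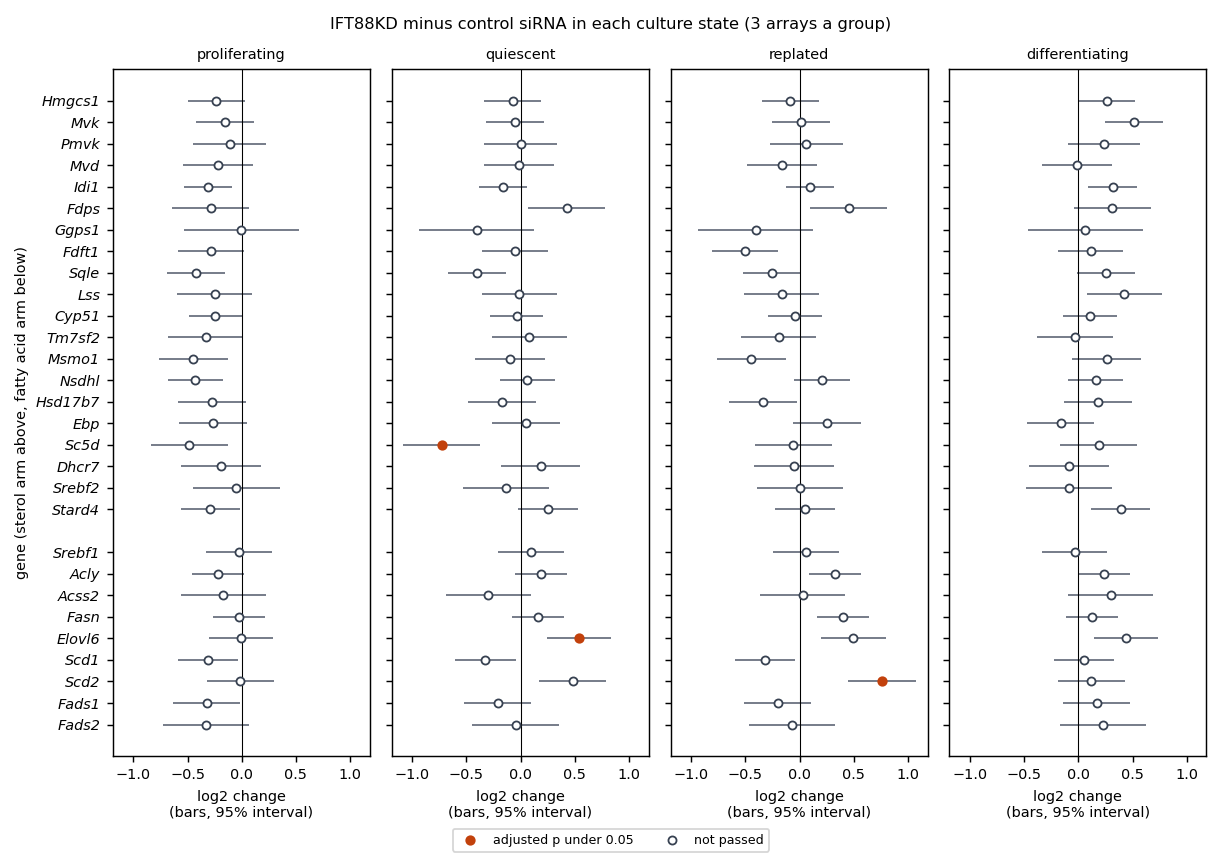
Difference between IFT88KD and control arrays for the 29 members in each state (log2, points with 95% intervals; filled points passed the test). Filled points are Sc5d (-0.73) and Elovl6 (0.54) in quiescent and Scd2 (0.76) in replated cells, and the panels of proliferating and differentiating cells have none.

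The sign differed between proliferating and differentiating cells for many members: 15 of 20 sterol and 8 of 9 fatty acid genes were below 0 in the former and above 0 in the latter, as were 24.5% of all genes. The difference between these effects, tested as an interaction, passed for 0 of 29 members (0.0464% of all genes). At an unadjusted p under 0.05 it was above 0 for 12 of 20 sterol and 3 of 9 fatty acid genes, where 1.82% of all genes were, with medians of 0.48 and 0.44 against 0.0020 for all genes. The fatty acid median was 0.27 without control proliferating replicate 3 and 0.28 without control differentiating replicate 3. Idi1 had the lowest adjusted p (0.63, SE 0.15, adjusted p = 0.407). Msmo1 (0.71), Stard4 (0.68), Sqle (0.67), Sc5d (0.67), Lss (0.67) and Mvk (0.67) had the largest differences, with adjusted p between 0.536 and 1. Since Ift88 itself did not differ in differentiating cells, this compares the labels.

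Between quiescent and proliferating cells 0 of 29 members differed in effect (1.28% of all genes did), and 3 sterol and 3 fatty acid genes were above 0 at an unadjusted p under 0.05, where 4.12% of all genes were. The medians of the arms were 0.20 and 0.18. Fdps, below 0 in proliferating and above 0 in quiescent cells, differed by 0.71 (SE 0.24, adjusted p = 0.253; 0.0193 with the block, where 3.89% of all genes passed, and 0.0383 with only the compared groups fitted). Stard4 (0.54, adjusted p = 0.257), Elovl6 (0.54, adjusted p = 0.341), Nsdhl (0.49, adjusted p = 0.299), Scd2 (0.49, adjusted p = 0.475) and Tm7sf2 (0.42, adjusted p = 0.698) followed. Over the alternatives the Fdps difference ran from 0.30 to 0.81. Between replated and quiescent cells 0 members differed (0.058% of all genes did). Sc5d differed there by 0.67 (SE 0.24) and Fdft1 by -0.45 (SE 0.21), both with adjusted p = 0.999, so the Sc5d call in quiescent and the lack of one in replated cells were not shown to differ. Likewise Scd2 differed between these states by 0.28 (95% interval -0.16 to 0.72). In replated cells Sc5d lay at or under the 40th percentile on 3 IFT88KD and 2 control arrays, so a fall there is limited by the floor. Both differences of effects that involve quiescent cells use the same 6 quiescent arrays. Those that involve proliferating cells likewise share the proliferating arrays.

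Other genes of these pathways, from a list of 43 regulators, transporters and lipid enzymes, were read beside the arms. Of them 24 were tested, and 0 passed in any Ift88 siRNA comparison or difference of effects. On quiescence in control cells 12 of 24 rose and 6 fell, where 41.9% of all genes rose and 29.4% fell. Their median was 0.25, against 0.14 for all genes and -2.08 in the sterol arm. Npc1, which exports cholesterol from lysosomes, rose by 2.06 (SE 0.17), Mylip, which marks lipoprotein receptors for degradation, by 1.67, the phosphatidate phosphatase Lpin1 by 1.63 and Insig2, which holds the SREBP complex in the endoplasmic reticulum, by 1.5 (SE 0.17). The falls were led by Fads3 (-1.22) and Mid1ip1 (-0.80), a partner of acetyl-CoA carboxylase. On replating 1 rose, Fads3 by 0.78, and 18 fell, Insig2 by 1.90 and Lpin1 by 1.60, where 9.73% of all genes rose and 66.2% fell. After quantile normalisation 5 were higher and 7 lower, where 27.5% and 36.3% of all genes were. On differentiation 8 rose and 6 fell, where 24.6% of all genes rose and 30.3% fell, with Agpat3, an acyltransferase of glycerolipid synthesis, higher by 1.06 and Me1, the cytosolic malic enzyme that supplies NADPH, lower (-1.24).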

How the data were processed

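Expression in 24 C2C12 samples was measured on Affymetrix arrays. The deposited series table holds log2 expression values; the log base was inferred from their range. GCOS, Affymetrix Expression Console and affy are named in the submitters' processing notes, but the normalisation method is not given in the sources used here. Distributions differ between culture states, which affects comparisons between states. The number of arrays limits the precision.

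Of 22690 probe sets, 20380 were assigned to 1 gene; the brightest of these represented its gene, as probe sets are not comparable in level. Genes whose signal exceeded their array's 40th percentile on 3 or more arrays (8616 of 12393) were fitted with limma 3.58.1 in R 4.3.3. The fit had 1 coefficient per group over all 24 arrays and 10 contrasts. Only the siRNA contrast in proliferating cells was checked on simulated data, with independent noise on each array. The other contrasts and the pairing of replicate numbers were not checked in this way. Members and lists were chosen with earlier results of these data known. Members described singly were those past the threshold in a siRNA contrast or difference of effects, the 6 largest differences in each siRNA contrast, and, for each state change, up to 5 rises and 5 falls past the threshold with no overlap between groups; members called with the replicate block were also described.

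Replicate numbers are shared by the labels. Deviations from the group means correlated at 0.257 to 0.708 between IFT88KD and control arrays of equal number, over the 4 states, and at most 0.127 between unequal numbers. The main fits of the siRNA comparisons did not use the numbers. The replicate block took them as pairs, as an alternative, and its values are given where they change a call. Equal numbers of quiescent and proliferating controls did not correlate (-0.0333 to 0.0700). Those of replated and quiescent controls correlated at 0.157 to 0.427, and unequal numbers at most at 0.0439. For differentiating and proliferating controls the values were 0.164 to 0.280 and at most 0.0541. The main fits of these state changes did not use the numbers either. The highest correlation between any 2 arrays was 0.997, and no 2 were identical.

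Alternatives were quantile normalisation, centring, other filters, other probe set rules, limma's trend and robust options, array weights, the block, fits of the compared groups alone and leaving out each array.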

Additional observations from a re-analysis of the deposited data

How the results depend on the processing

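Over 62 results named for members, 1155 alternatives were run: 1101 kept direction and side of the threshold, 25 no longer passed, 28 newly passed and 1 changed sign, the difference in Scd2 effect between replated and quiescent cells (-0.093 on the mean of probe sets). For Ift88 in differentiating cells the sign turned with array weights (0.037), without IFT88KD replicate 2 (0.13) and without control replicate 3 (0.054), and leaving out 1 array gave -0.11 to 0.13. The numbers of called members of 29 changed as follows, and the cause was not tested. For most alternatives, among them array weights and the mean of probe sets, the share of all genes called was not computed. Counts under these cannot be read as particular to the members. In proliferating cells (0 called) the mean of probe sets gave 1 (Idi1), array weights 7, the replicate block 1 and leaving out 1 array 0 to 1. In quiescent cells (2 called) these gave 1, 5, 5 and 0 to 2, and quantile normalisation, trend and robust fitting, and centring on the median of the tested genes each gave 3, adding Scd2. In replated cells (1 called) the mean of probe sets gave 0, array weights 8, the replicate block 8, the compared groups alone 0, leaving out 1 array 1 to 2, and centring on the median of the tested genes, an alternative chosen after seeing the data, 2. In differentiating cells (0 called) array weights gave 1 and leaving out 1 array 0 to 0. For differentiation in controls (12 called) array weights gave 19 and leaving out 1 array 8 to 12; on quiescence (24 called) and replating (24 called) leaving out 1 array gave 23 to 24 and 23 to 25. For the difference of effects between quiescent and proliferating cells (0 called) array weights gave 2, the replicate block 1 and the compared groups alone 1, and between differentiating and proliferating cells (0 called) array weights gave 3. Of the falls on quiescence in controls, where equal numbers did not pair, the replicate block added Ggps1 (adjusted p = 0.0484). The block changed no call other than those given here or beside the results. Signal near the floor limits Idi1, Fdps, Stard4, Sc5d, Mvd and Mvk in quiescent or replated cells.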
